A study of Homo sapiens with 34 samples.

Results

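The 10 genes described here are core components of the Notch pathway, followed through cytokine-free haematopoietic differentiation of human embryonic stem cells. They were taken by name from the table of 20255 genes and comprise the 4 receptors NOTCH1, NOTCH2, NOTCH3 and NOTCH4, the 3 ligands DLL4, JAG1 and JAG2, and the 3 target genes HES1, HEY1 and HEY2. All 10 were listed and all 10 passed the filter on low values. RNA was sequenced from H1, an established human embryonic stem cell line, in 34 samples of 12 populations, and no haematopoietic cytokine was added to any culture. The line was grown undifferentiated (1 sample) or formed into aggregates, the embryoid bodies. These were differentiated with BMP4 and VEGF and later with VEGF alone, with 3 independent biological replicates of every later population. In the paper, day 0 cells were unattached embryoid bodies, and BMP4 and VEGF were given at their attachment. The step from day 0 to day 2 thus spans the attachment and the first exposure to these factors. Whole cultures were sampled on days 0, 2 and 4, and cells sorted by CD43, a sialoglycoprotein of the blood cell surface, were sampled on days 6, 9 and 12. On day 16 the sort also used CD45, so that the day 16 CD43- cells were CD43-CD45- and the day 16 CD43+ cells were CD43+/CD45+. A CD43- population was thus a mixture of all cells without the blood marker, and in such bulk samples fewer cells of a type and less RNA per cell cannot be told apart.

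Notch receptors are single-pass membrane proteins that are cleaved when a Delta-like or Jagged ligand on a neighbouring cell binds them. The released intracellular domain enters the nucleus, joins the DNA-binding protein RBPJ and activates target genes, among them the HES and HEY transcriptional repressors. In blood vessels the pathway is best known for arterial identity and for restraining sprouting, and in the embryo for the emergence of blood from endothelium.

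RBPJ prefers DNA with the core TGGGAA, and the promoters of the target genes are shown because the differentiation results below turn on these genes. In the RefSeq promoter sequences (GRCh38.p14), the core was searched on both strands in the 250 bases before each start. Counting -1 as the base before the start, HES1 held it at -84 to -79 and at -70 to -65. HEY2 held it at -213 to -208 on the opposite strand, and HES5, a HES family gene outside the 10, at -80 to -75 and at another place not shown. The stretches below lie at chr3:194136028-194136117 (plus strand), chr6:125749382-125749471 (plus strand) and chr1:2530294-2530383 (minus strand). None of these stretches overlapped an annotated exon, and capitals mark the core or its complement.
HES1: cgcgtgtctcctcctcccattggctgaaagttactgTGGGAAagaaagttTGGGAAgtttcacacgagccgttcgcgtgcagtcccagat
HEY2: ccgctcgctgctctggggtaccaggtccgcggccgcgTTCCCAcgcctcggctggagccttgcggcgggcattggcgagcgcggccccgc
HES5: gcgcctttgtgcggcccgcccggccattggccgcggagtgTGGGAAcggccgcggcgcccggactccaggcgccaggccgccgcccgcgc
The core occurred in 20.8% of all 35116 promoters and the longer GTGGGAA, which contains it, in 5.43%. HEY1 had no entry. Of the 9 members with one, these 2 target genes held the core and the receptors and ligands did not. The list of targets held 10 genes (HES1, HEY1, HEY2, HES2, HES4, HES5, HES6, HES7, HEYL and NRARP). Whether each of them responds to Notch was not tested. Of these 10, 9 had an entry and 5 of the 9 (HES1, HEY2, HES4, HES5 and HEYL) held both motifs. These matches describe letters in a window and no binding was measured.

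Values are the deposited tag counts, which the authors normalized for GC content within samples and between samples. Every sample summed to 17856940 with a median of 197 and a highest value of 90700, so a tag count gives the place of a gene among genes in its sample. The values hold no sequencing depth, so every error given here comes from the spread between replicates. The labels were followed by SPN, which encodes CD43, at 2338 to 9460 in CD43+ samples and 18 to 328 in CD43- samples. PTPRC, which encodes CD45, was at 0 to 8 in both day 6 populations, was at 4, 197 and 371 in day 12 CD43- cells, and reached 6920 to 15868 in CD43+ cells of days 12 and 16. Endothelial, arterial and mesenchymal genes were listed above 0 in all sorted samples, and their summed levels are given beside the results they moved with. Levels of different genes are not comparable on this scale, so each gene was compared with itself.

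**Figure D1:**
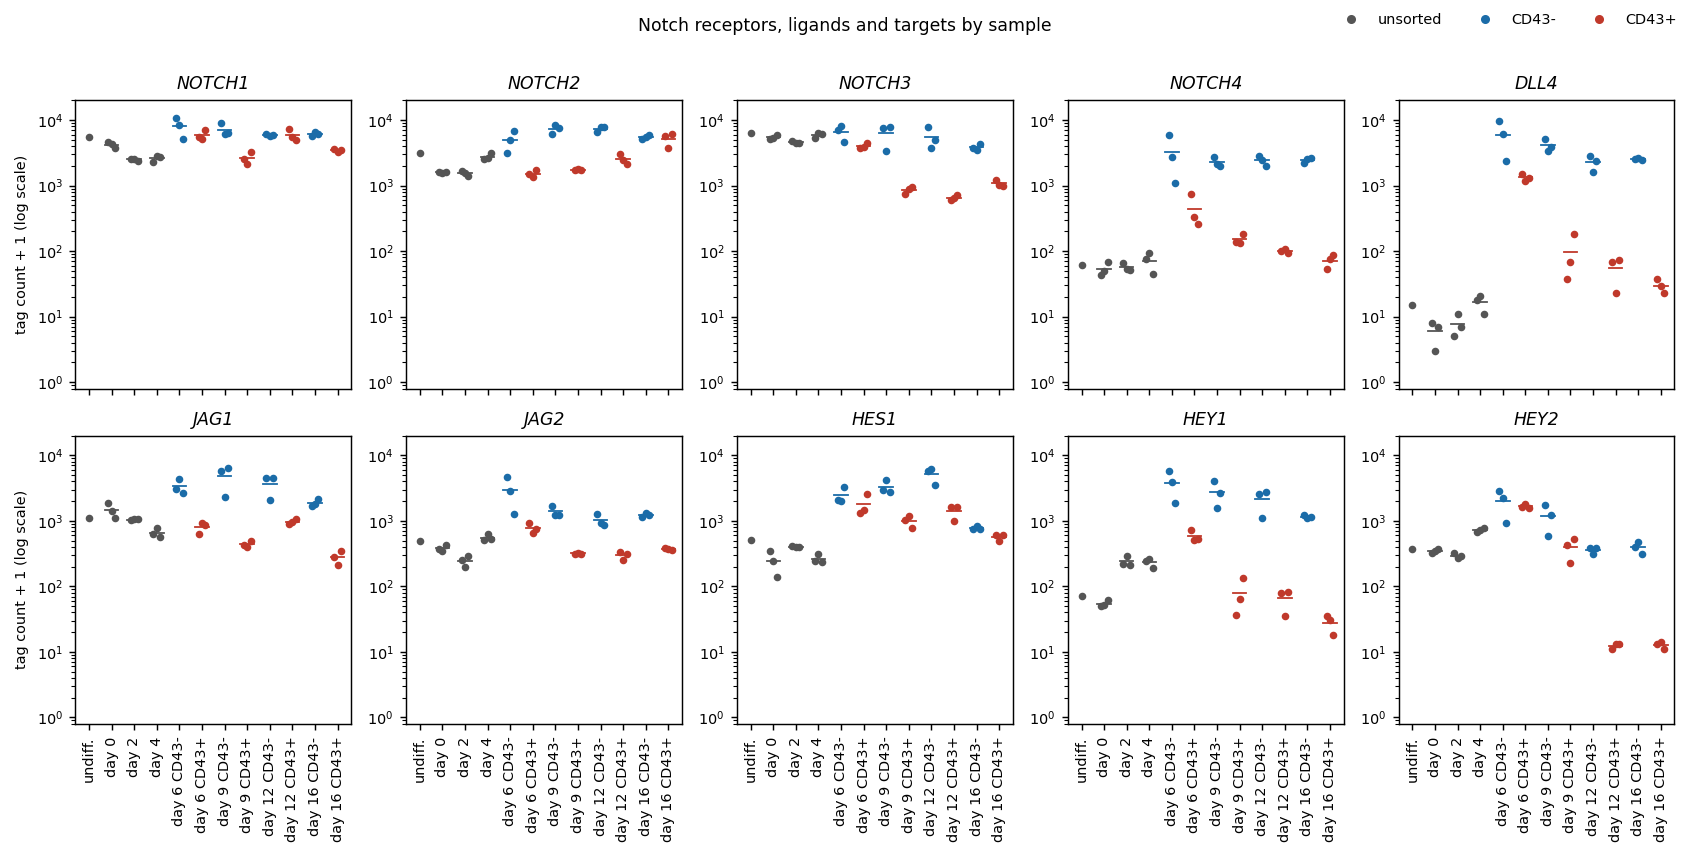
Tag counts plus 1 on a log axis for the 10 Notch genes in 12 populations, with points for samples and bars for the means of 3 replicates (1 undifferentiated sample, no bar). NOTCH4, DLL4 and HEY1 were low until day 4, high in all CD43- samples from day 6 onwards, and in CD43+ cells fell back to 53 to 85, 22 to 36 and 17 to 34 by day 16.

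The first question was how the genes behaved while mesoderm formed. From day 0 to day 2, 1 of the 10 was called higher, that is at a Benjamini-Hochberg adjusted p below 0.05 in limma and a change above 4-fold, against 4.4% of the 19788 genes tested. This was HEY1, a repressor of the Hairy-related family, at 50, 51 and 60 on day 0 and 220, 294 and 208 on day 2. The 3 day 2 samples stood above all day 0 samples (log2 fold change 2.13 ± 0.43 SE, adjusted p = 2.53e-04). The rise lay near the fold threshold and missed it without replicate 2 of day 2 (1.98). NOTCH1 was 1.67-fold lower on day 2 (adjusted p = 0.00353), under the fold threshold. From day 2 to day 4, limma called 0 of the 10 in either direction (9.5% of all genes), with 4 higher and 2 lower at an unadjusted p below 0.05. The nearest to the threshold was HEY2, at 327, 266 and 289 on day 2 and 683, 714 and 786 on day 4, 2.47-fold higher (adjusted p = 0.00247).

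In the step from the whole cultures of day 4 to the CD43- cells of day 6, all 3 ligands and all 3 targets rose at the adjusted p. By the same rule HEY1, HEY2, HES1 and JAG2 had also risen in an earlier step. HES1 rose from day 0 to day 2 (log2 fold change 0.83) and JAG2 from day 2 to day 4 (1.18). Day 4 was unsorted, so a change with time and the selection of cells by the sort cannot be told apart. In CD43- cells 6 of the 10 were called higher and 0 lower in limma, against 4.94% and 2.77% of all genes. All 3 ligands, the receptor NOTCH4 and the targets HES1 and HEY1 made up the 6. The median log2 fold change of the 10 was 2.28, beside -0.08 for all genes tested. At an unadjusted p below 0.05, 9 were higher and 0 lower in limma, and the remaining gene was NOTCH3.

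DLL4, the Delta-like ligand of arterial and tip endothelial cells, went from near the bottom of the table to high values in this step. It was at 7, 2 and 6 on day 0, at 4, 10 and 6 on day 2 and at 17, 20 and 10 on day 4. In CD43- cells of day 6 it was at 9493, 6068 and 2370, and in CD43+ cells at 1518, 1168 and 1296. Both sorted populations lay wholly above day 4 and did not overlap each other. Against day 4 the log2 fold change was 8.32 ± 0.50 in CD43- cells (adjusted p = 4.02e-12) and 6.36 ± 0.50 in CD43+ cells (adjusted p = 9.45e-11).

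NOTCH4, the receptor known for its endothelial expression, followed the same course. Its day 4 samples were at 74, 94 and 44, its day 6 CD43- samples at 5979, 2680 and 1096 and its day 6 CD43+ samples at 739, 328 and 262. Each later group lay wholly above day 4, and the lowest CD43- sample exceeded the highest CD43+ sample. The rise was 38.0-fold in CD43- cells (adjusted p = 1.13e-10) and 5.85-fold in CD43+ cells (adjusted p = 4.44e-06).

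HES1, the target shared by most Notch-responsive tissues, rose in both populations. It was at 245, 312 and 236 on day 4, at 2076, 1991 and 3268 in CD43- cells and at 1312, 1478 and 2554 in CD43+ cells of day 6. The sorted populations overlapped each other and not day 4. The rise was 9.05-fold in CD43- cells (adjusted p = 2.07e-09) and 6.48-fold in CD43+ cells (adjusted p = 1.12e-08).

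HEY1, JAG1 and JAG2 were called against day 4 in CD43- cells and not in CD43+ cells. HEY1 went from 245, 258 and 193 to 5704, 3896 and 1882, a rise of 3.91 ± 0.43 on the log2 scale (adjusted p = 5.45e-08). In CD43+ cells it was at 727, 506 and 525, 2.50-fold above day 4 (adjusted p = 0.0107). JAG1, a Jagged ligand of endothelium and mesenchyme, rose 5.06-fold from 632, 764 and 556 to 3035, 4329 and 2664 in CD43- cells (adjusted p = 4.86e-07). JAG2, its relative, rose 4.67-fold (adjusted p = 1.40e-07), and without replicate 1 of the CD43- cells its log2 value fell from 2.22 to 1.81, under the threshold. The CD43+ samples of JAG1, at 636, 915 and 860, overlapped those of day 4. In CD43+ cells 3 of the 10 were called higher than on day 4 (NOTCH4, DLL4 and HES1), against 6.8% of all genes. NOTCH2 and NOTCH3 were lower in them at the adjusted p alone (log2 fold change -0.87 and -0.57).

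The day 6 CD43- replicates differed widely in the genes that had risen. DLL4, NOTCH4, JAG2, HEY1, HEY2 and NOTCH1 were all highest in replicate 1 and lowest in replicate 3. The summed level of 10 endothelial markers was 119251, 88064 and 36930 in replicates 1, 2 and 3, and that of 6 arterial markers 71906, 38044 and 19661. NOTCH2 had the opposite order, at 3156, 4954 and 6690, and the 8 mesenchymal and mural markers summed to 135732, 147131 and 160819. Of these markers, COL1A1, POSTN, PDGFRA and PDGFRB rose from replicate 1 to replicate 3. ACTA2 and TAGLN were highest in replicate 2, CSPG4 was lowest in it, and COL3A1 was at the highest value of the scale in each. The part of these markers in the day 6 values was not tested.

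**Figure D2:**
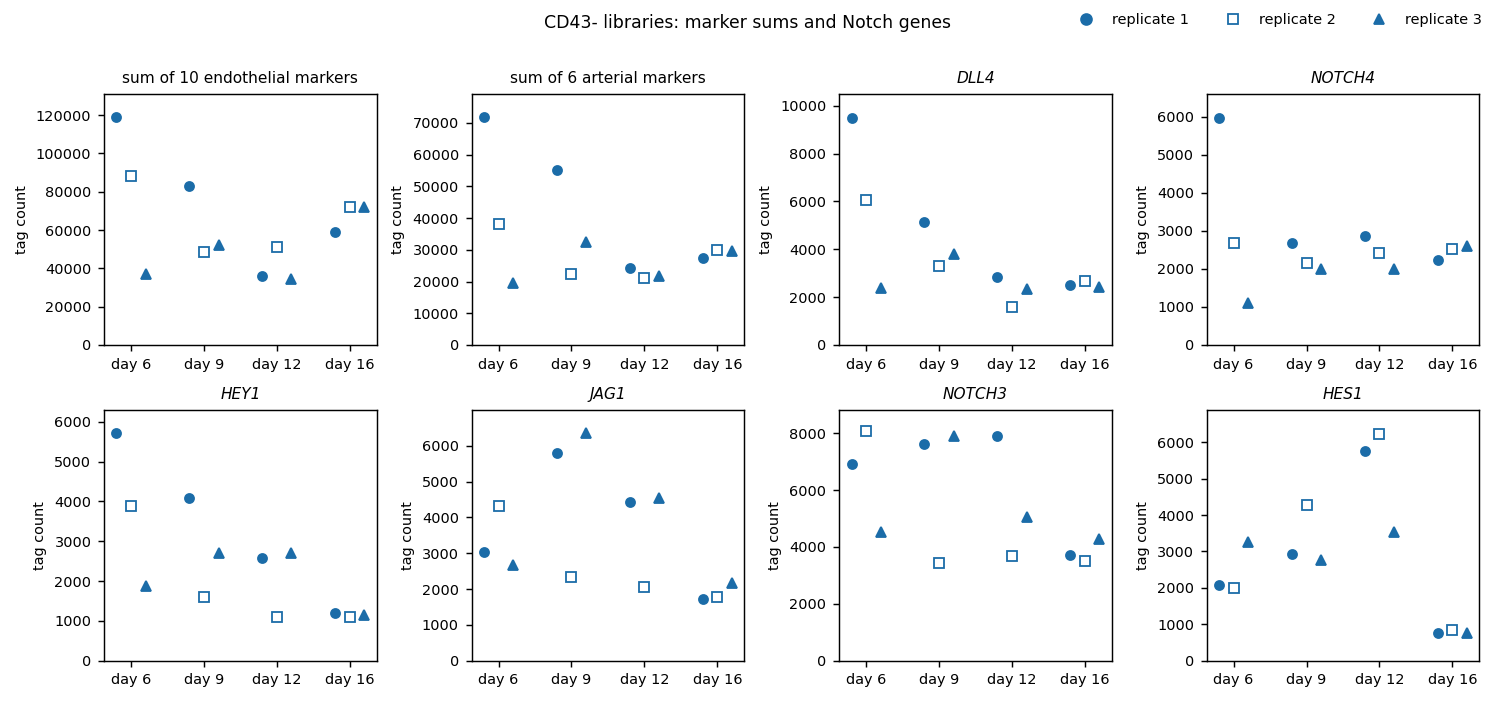
Tag counts on linear axes from 0 in the 12 CD43- samples, by day and replicate (symbols), for the summed endothelial and arterial markers and 6 Notch genes. On day 6 replicate 1 had the highest and replicate 3 the lowest endothelial sum, DLL4, NOTCH4 and HEY1, and on days 9 and 12 replicate 2 had the lowest DLL4, JAG1, NOTCH3 and HEY1.

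The second question was which of the genes separated blood from the other cells. All 10 had a log2 fold change below 0 in CD43+ cells on every day. It was near 0 for NOTCH1 on day 12 (-0.01), NOTCH2 on day 16 (-0.12) and HEY2 on day 6 (-0.12). These values turned sign when certain single replicates were left out. Limma called 0 of them higher on any day, and 0 were higher at an unadjusted p below 0.05, while 4.69%, 8.65%, 11.8% and 12.2% of all genes were called higher on days 6, 9, 12 and 16. On day 6, 3 of the 10 were called lower in CD43+ cells, against 7.85% of all genes. The count was 7 on day 9 (12.8% of all genes), 5 on day 12 (14.4%) and 5 on day 16 (13.6%). At the adjusted p alone, 7, 10, 9 and 8 of the 10 were lower on these days, against 21.5%, 27.2%, 29.1% and 30.1% of all genes. The median log2 fold change of the 10 was -1.69, -2.45, -2.44 and -2.31, beside 0.14, 0.24, 0.22 and 0.14 for all genes. Over the 4 days, the called genes always included NOTCH4 and HEY1.

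**Figure D3:**
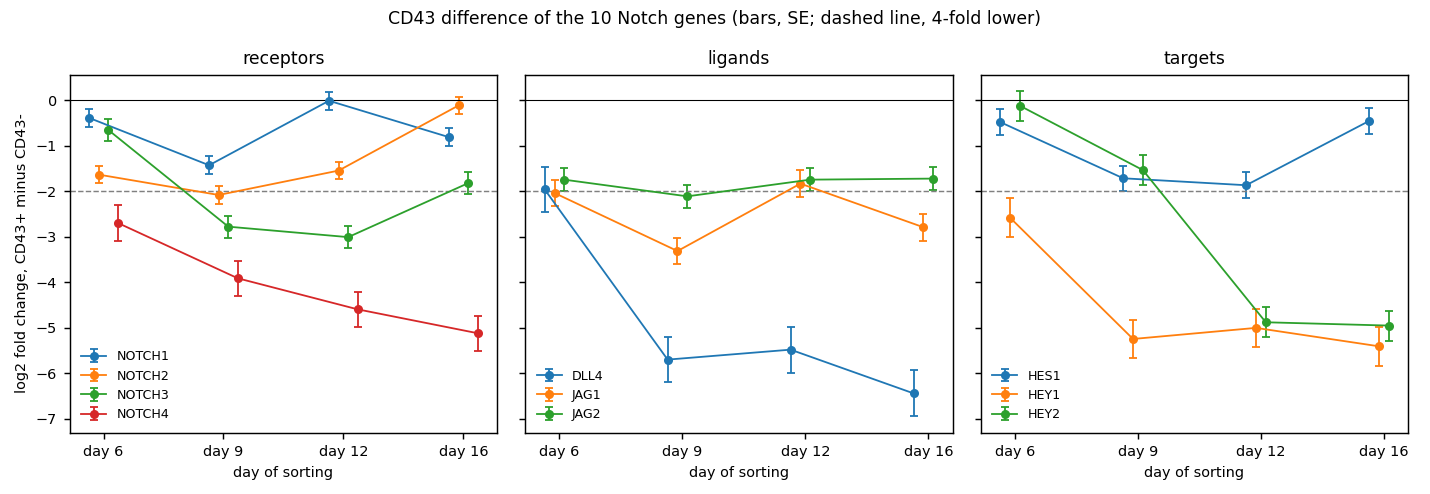
Log2 fold change of CD43+ minus CD43- cells by day for the 4 receptors, 3 ligands and 3 targets, with bars for the SE of limma and a dashed line at 4-fold lower. NOTCH4, DLL4 and HEY1 reached -5.12, -6.45 and -5.41 on day 16, HEY2 moved from -0.12 on day 6 to -4.88 on day 12, and NOTCH1 stayed above -2 on all 4 days.

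Among the receptors, NOTCH4 (chr6:32194843-32224067, minus strand) had the largest CD43 difference on every day. Its CD43- samples were at 2680, 2146 and 2008 on day 9, at 2870, 2431 and 2007 on day 12 and at 2236, 2534 and 2602 on day 16. In CD43+ cells it was at 136, 133 and 182, then at 98, 106 and 92, and then at 53, 74 and 85. No CD43+ sample reached any CD43- sample of its day, and by day 12 the CD43+ range overlapped that of day 4. The log2 fold change was -2.70 ± 0.39 on day 6 (adjusted p = 1.92e-06) and -3.92 on day 9 (1.55e-09). It reached -4.60 by day 12 (4.79e-11) and -5.12 by day 16 (6.09e-12). Part of NOTCH4 overlaps GPSM3 on the same strand in the annotation. GPSM3 was at 3527 to 3738 in CD43+ and 410 to 506 in CD43- cells of day 16, the opposite direction.

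NOTCH3 (chr19:15159038-15200981, minus strand), the receptor of vascular smooth muscle and pericytes, was high from the start. In CD43+ cells of day 6 it was already below day 4 (log2 fold change -0.57, under the fold threshold), and it fell further after day 6. It was at 6248 in the undifferentiated sample, and its 9 samples of days 0, 2 and 4 lay between 4428 and 6364. In CD43+ cells it was at 3720, 3895 and 4476 on day 6, at 755, 894 and 939 on day 9, at 592, 650 and 725 on day 12 and at 1234, 1030 and 990 on day 16. In CD43- cells it stayed at 3422 to 8080 over the 4 days. The day 6 and day 9 CD43+ samples did not overlap, and the fall was 4.67-fold (log2 fold change -2.22 ± 0.24, adjusted p = 5.87e-08). Against CD43- cells, NOTCH3 was called lower on day 9, by a log2 fold change of -2.78 ± 0.24 (adjusted p = 1.25e-10), and on day 12, by one of -3.01 ± 0.24 (adjusted p = 1.74e-11). It was 1.58-fold lower on day 6 (adjusted p = 0.0249) and 3.54-fold lower on day 16 (adjusted p = 1.89e-07), both under the fold threshold.

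NOTCH2 (chr1:119911553-120069626, minus strand), a broadly expressed receptor, was higher in CD43- cells until day 12 and not on day 16. Its CD43- samples were at 6135, 8494 and 7624 on day 9 and its CD43+ samples at 1703, 1800 and 1696, without overlap. It was called on that day alone (-2.08 ± 0.19, adjusted p = 3.40e-10), and missed the fold threshold without replicate 2 of the CD43- cells (-1.98). Day 6 gave -1.64 ± 0.19 (adjusted p = 6.97e-08), day 12 gave -1.55 ± 0.19 (adjusted p = 5.32e-08) and day 16 gave -0.12 ± 0.19 (adjusted p = 0.601). On day 16 the CD43+ samples, at 5777, 3750 and 6064, enclosed the CD43- samples at 5123, 5550 and 5898. The difference changed by 1.43 ± 0.27 on the log2 scale from day 12 to day 16 (adjusted p = 5.83e-04). NOTCH2NL, a near-identical partial copy, is a separate row of the table at 24 to 520, so reads of NOTCH2 may have been split with it.

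NOTCH1 (chr9:136494444-136545862, minus strand), the receptor with the best known role in definitive blood stem cells, was not called in any CD43 comparison. In CD43+ cells it was at 5550, 5123 and 7152 on day 6, at 2550, 2104 and 3222 on day 9, at 7320, 5474 and 5032 on day 12 and at 3646, 3276 and 3482 on day 16. Day 9 was thus wholly below days 6 and 12 in these cells. Its CD43- samples lay between 5123 and 10820 throughout. The CD43 difference was -0.39 ± 0.19 on day 6 (adjusted p = 0.0967), -1.43 on day 9 (3.67e-07), -0.01 on day 12 (0.962) and -0.81 by day 16 (6.00e-04). The difference changed by -1.04 ± 0.27 from day 6 to day 9 (adjusted p = 0.00828) and by 1.42 ± 0.27 from day 9 to day 12 (adjusted p = 3.05e-04), both below 4-fold.

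Ordered by population mean, NOTCH1 was highest in day 6 CD43- cells and lowest on day 2, and its 6 highest populations overlapped each with the next. NOTCH2 was highest in CD43- cells of days 9 and 12, which overlapped, and lowest in day 6 CD43+ cells, which overlapped day 2. The 3 lowest populations of NOTCH3 were the CD43+ cells of days 16, 9 and 12, each separate from its neighbours. For NOTCH4 the 4 CD43- populations overlapped each with the next, followed without overlap by CD43+ cells of day 6 and then of day 9.

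Of the ligands, DLL4 (chr15:40929340-40939072, plus strand) had the widest range of the CD43 difference. The CD43- samples were at 5130, 3322 and 3819 on day 9, at 2825, 1587 and 2348 on day 12 and at 2509, 2677 and 2430 on day 16. The CD43+ samples were at 36, 67 and 182, then at 68, 22 and 73, and then at 36, 28 and 22. The CD43+ samples of day 9 all lay below those of day 6, and from day 9 on the 2 sorted populations were over an order of magnitude apart at their means. The log2 fold change was -5.70 ± 0.50 on day 9 (adjusted p = 1.80e-10), -5.48 on day 12 (2.55e-10) and -6.45 on day 16 (1.14e-11). On day 6 it was -1.96 ± 0.50 (adjusted p = 0.00196), at the edge of the 4-fold threshold, and it passed the threshold without replicate 3 of the CD43- cells (-2.52) or replicate 1 of the CD43+ cells (-2.06). Between days 6 and 9, DLL4 fell by 4.10 on the log2 scale in CD43+ cells (adjusted p = 4.52e-07).

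JAG1 (chr20:10637684-10674107, minus strand) was called lower in CD43+ cells on days 6, 9 and 16. Its CD43- samples were at 5785, 2338 and 6366 on day 9 and at 4430, 2068 and 4544 on day 12, and its CD43+ samples at 432, 402 and 498 and at 902, 954 and 1063. On day 16 it was at 1712, 1783 and 2176 in CD43- and 276, 209 and 342 in CD43+ cells. The populations did not overlap on any of the 4 days. The difference was -2.04 ± 0.29 on day 6 (adjusted p = 2.01e-06), -3.32 on day 9 (1.92e-10), -1.83 on day 12 (3.86e-06) and -2.79 by day 16 (3.52e-09). The day 6 call was lost without replicate 2 of the CD43- cells (-1.84) or replicate 1 of the CD43+ cells (-1.88), and day 12 was called without replicate 2 of the CD43- cells (-2.21).

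JAG2 (chr14:105140981-105168824, minus strand) had a log2 difference between -2.11 and -1.72 on all 4 days. Its CD43- samples were at 4602, 2862 and 1293 on day 6 and at 1146, 1325 and 1219 on day 16, and its CD43+ samples at 923, 654 and 742 and at 381, 376 and 356. The populations were separate on all 4 days. The log2 fold change was -1.75 ± 0.26, -2.11, -1.75 and -1.72 on days 6, 9, 12 and 16 (adjusted p = 2.78e-06, 6.03e-08, 1.07e-06 and 1.37e-06), so that day 9 alone was called. That call was lost without replicate 1 of the CD43- cells (-1.96), and day 6 was called without replicate 3 (-2.24).

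In the order of populations, the 4 CD43- means were the highest for each ligand. DLL4 was highest in day 6 CD43- cells, which overlapped day 9, followed without overlap by days 16 and 12. JAG1 was highest in day 9 CD43- cells, with days 9, 12 and 6 overlapping each with the next. JAG1 was also measured before differentiation, at 1094 in the undifferentiated sample and at 1892, 1436 and 1104 on day 0. DLL4 was at 14 in that undifferentiated sample.

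In the CD43- cells of days 9 and 12, 6 of the 10 genes were lowest in replicate 2 on both days. These were NOTCH1, NOTCH3, DLL4, JAG1, HEY1 and HEY2. For NOTCH1 the gap was small, at 6064, 5698 and 6000 on day 12. NOTCH2 and HES1 were instead highest in replicate 2 on both days. On day 9 the endothelial marker sum was 82996, 48778 and 52062, and the arterial sum 54982, 22370 and 32385, also lowest in replicate 2. On day 12 the arterial sum was again lowest in that replicate, at 24223, 21150 and 21720. The endothelial sum was then highest in it, at 36152, 51254 and 34379, through KDR, a VEGF receptor, at 13311, 29000 and 14002. Without KDR, an alternative added after seeing the data, that sum was 22841, 22254 and 20377. The mesenchymal and mural sum was 176052, 180888 and 222787 on day 9 and 223174, 219511 and 224681 on day 12, with COL3A1 at 90700 in each of these 6 samples, where the values end. The part of these markers in the replicate spread was not tested.

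The target genes were split between HEY1 and HEY2, which were nearly lost from CD43+ cells at different times, and HES1, which was not. HEY1 (chr8:79764010-79767863, minus strand) was at 36, 64 and 132 in CD43+ cells of day 9, at 78, 34 and 82 on day 12 and at 34, 30 and 17 on day 16. Its CD43- samples were at 4078, 1596 and 2704, then at 2578, 1090 and 2706, and then at 1209, 1086 and 1142. No CD43+ sample came near the CD43- samples of its day. The log2 fold change was -2.58 ± 0.43 on day 6 (adjusted p = 1.36e-05), -5.25 on day 9 (3.54e-11), -5.01 on day 12 (5.69e-11) and -5.41 on day 16 (1.30e-11). In CD43+ cells it fell 8.47-fold from day 6 to day 9 (adjusted p = 2.66e-06).

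HEY2 (chr6:125747664-125761269, plus strand), a related repressor that acts in heart and artery development, did not differ between the sorted populations on day 6 by the test and was far lower in CD43+ cells on days 12 and 16. It was at 1634, 1794 and 1585 in CD43+ and 2894, 2236 and 928 in CD43- cells of day 6, which overlapped (-0.12 ± 0.33, adjusted p = 0.785). On day 9 it was at 422, 224 and 532 in CD43+ and 1764, 576 and 1216 in CD43- cells. On day 12 the CD43+ samples were at 10, 12 and 12 and the CD43- samples at 388, 316 and 386, and on day 16 at 12, 13 and 10 and at 399, 472 and 315. The CD43+ cells had thus dropped to near the bottom of the table by day 12. The fall in CD43+ cells was 4.51-fold from day 6 to day 9 (adjusted p = 1.01e-05), under the threshold without replicate 2 of day 9 (log2 fold change -1.81), and 30.1-fold from day 9 to day 12 (adjusted p = 3.00e-12). The CD43 difference was -1.54 ± 0.33 on day 9 (adjusted p = 1.94e-04), not called, and was called at -4.88 on day 12 (5.63e-13) and -4.96 on day 16 (4.40e-13). HEY2 was at 324, 340 and 370 on day 0, so the CD43+ cells of days 12 and 16 were the lowest of all 12 populations.

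HES1 (chr3:194136145-194138732, plus strand) was never called between the sorted populations. It was at 2922, 4269 and 2760 in CD43- and 1018, 1204 and 788 in CD43+ cells of day 9, and at 5760, 6220 and 3527 and at 1614, 988 and 1619 on day 12. These did not overlap, and the log2 fold change was -1.72 ± 0.28 (adjusted p = 6.13e-06) and -1.87 ± 0.28 (adjusted p = 1.44e-06), short of 4-fold. Day 12 was called without replicate 3 of the CD43- cells (-2.12). On day 6 the difference was -0.48 ± 0.28 (adjusted p = 0.157) and on day 16 -0.46 ± 0.28 (adjusted p = 0.152).

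From day 12 to day 16 HES1 was the single member called in CD43- cells, where 5.97% of all genes were called lower. It went from 5760, 6220 and 3527 to 762, 835 and 763, a 6.38-fold fall without overlap (adjusted p = 2.54e-08). The receptors and ligands of the same cells were not called. DLL4 was at 2825, 1587 and 2348 and then at 2509, 2677 and 2430. JAG1 was lower at the adjusted p alone (log2 fold change -0.88), at 4430, 2068 and 4544 and then at 1712, 1783 and 2176. The endothelial marker sum was 34379 to 51254 on day 12 and 58743 to 71928 on day 16. PTPRC was at 4, 197 and 371 on day 12 and at 18, 42 and 22 on day 16, where the sort also used CD45. The part of this change of sort was not tested.

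The order of the targets by population also differed. HES1 had its highest mean in day 12 CD43- cells and its next in those of days 9 and 6, which overlapped each with the next. HEY1 ran from day 6 through days 9 and 12 to day 16 in CD43- cells, each overlapping the next, and then without overlap to day 6 CD43+ cells. HEY2 had day 6 CD43- and CD43+ cells at the top, overlapping, and the CD43+ cells of days 16 and 12 at the bottom, overlapping each other at 10 to 13.

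Within the sorted populations, the step with the most called genes among the 10 was that of CD43+ cells from day 6 to day 9. There 4 of the 10 were called lower (NOTCH3, DLL4, HEY1 and HEY2), against 3.97% of all genes, and 9 of the 10 were lower at the adjusted p alone, against 15.7%. The exception was NOTCH2, at 1494, 1334 and 1742 on day 6 and at 1703, 1800 and 1696 on day 9. The endothelial marker sum of these cells went from 38798, 35246 and 45809 to 13367, 13807 and 16742. CDH5, the endothelial cadherin, was at 4481 to 6144 and then at 440 to 584. KDR was at 15842 to 22812 and then at 2484 to 5188. Some other markers of the sum fell less. PECAM1 was at 5314 to 5704 and then at 4078 to 4329, and TIE1 at 4716 to 6006 and then at 3684 to 4374. ESAM overlapped, at 1286 to 1974 and then at 1264 to 1438. Without KDR the sum went from 22956, 19404 and 22997 to 10393, 11323 and 11554. The part of these endothelial transcripts in the fall of the 4 genes was not tested. From day 9 to day 12, HEY2 alone was called in CD43+ cells (6.54% of all genes called lower), and from day 12 to day 16 limma called 0 of the 10 (9.05% of all genes), with 2 higher and 4 lower at an unadjusted p below 0.05. JAG1 was then 3.58-fold lower and would have been called without replicate 3 of the day 16 CD43+ cells (log2 fold change -2.01).

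In CD43- cells limma called 0 of the 10 from day 6 to day 9 (1.75% of all genes), with 1 higher and 2 lower at an unadjusted p below 0.05. It called 0 from day 9 to day 12 (7.33%), with 1 higher and 1 lower. HEY2 was 2.96-fold lower in the later of these steps (adjusted p = 5.47e-04), and passed the threshold without replicate 2 of day 9 (log2 fold change -2.01).

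Whether the CD43 difference itself changed between days was tested as a difference of differences. From day 6 to day 9 the log2 difference changed by -3.74 ± 0.71 for DLL4 (adjusted p = 4.63e-04), by -2.67 ± 0.60 for HEY1 (adjusted p = 0.00239) and by -2.12 ± 0.34 for NOTCH3 (adjusted p = 6.67e-05). These 3 of the 10 were called, against 4.18% of all genes, and all 3 took the CD43+ cells further below. The NOTCH3 value fell short of 4-fold without replicate 3 of the day 6 CD43- cells (-1.89) or replicate 1 or 3 of the day 9 CD43- cells (-1.94 and -1.92). From day 9 to day 12 it changed by -3.35 ± 0.46 for HEY2 (adjusted p = 4.68e-06), the single member called (4.39% of all genes). From day 12 to day 16 limma called 0 of the 10 (5.03% of all genes), with 3 higher and 2 lower at an unadjusted p below 0.05.

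CD43+ samples also held transcripts of mesenchymal marker genes. The mesenchymal and mural sum of 8 markers was highest in replicate 3 on day 6 (23055, 26776 and 65561), day 9 (3022, 5212 and 18243) and day 12 (18057, 16909 and 36939). In CD43- cells it was 135732 to 232754. COL1A1 and COL3A1 made up most of the CD43+ sums, with COL3A1 at 1952, 5706 and 25870 on day 6. On that day POSTN was at 64, 62 and 56 and CSPG4 at 669, 220 and 237. On day 9 each of the 8 was highest in replicate 3. On day 12 COL3A1 was at 11200, 12848 and 29026, TAGLN at 356, 198 and 302 and POSTN at 160, 230 and 216. DLL4, HEY1 and NOTCH4 were also highest in replicate 3 of the day 9 CD43+ cells, at 182, 132 and 182. On day 6 they were highest in replicate 1, at 1518, 727 and 739. On day 12 DLL4 was at 68, 22 and 73, HEY1 at 78, 34 and 82 and NOTCH4 at 98, 106 and 92. Without that replicate the day 9 differences of DLL4 and HEY1 were larger, at -6.33 and -5.73. The blood marker sum was 23209 to 35206 in CD43+ and 671 to 2957 in CD43- cells.

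Another 47 genes of Notch signalling were listed by role, comprising 4 further ligands, 9 genes of receptor cleavage, 5 of receptor glycosylation, 13 of endocytosis and turnover, 9 of the nuclear complex and 7 further targets. On day 6, limma called 3 of the 47 lower in CD43+ cells (6.38%) and 0 higher, with 15 lower and 7 higher at an unadjusted p below 0.05. The counts were 8 lower and 1 higher on day 9, 9 lower and 1 higher on day 12, and 7 lower and 1 higher on day 16. The shares lower were 6.38%, 17%, 19.1% and 14.9% on days 6, 9, 12 and 16, beside 7.85%, 12.8%, 14.4% and 13.6% of all genes. The share higher was 2.13% on days 9, 12 and 16, beside 8.65%, 11.8% and 12.2% of all genes. Over the 4 days the median log2 fold change of the 47 was -0.12, -0.17, -0.17 and -0.05.

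**Figure D4:**
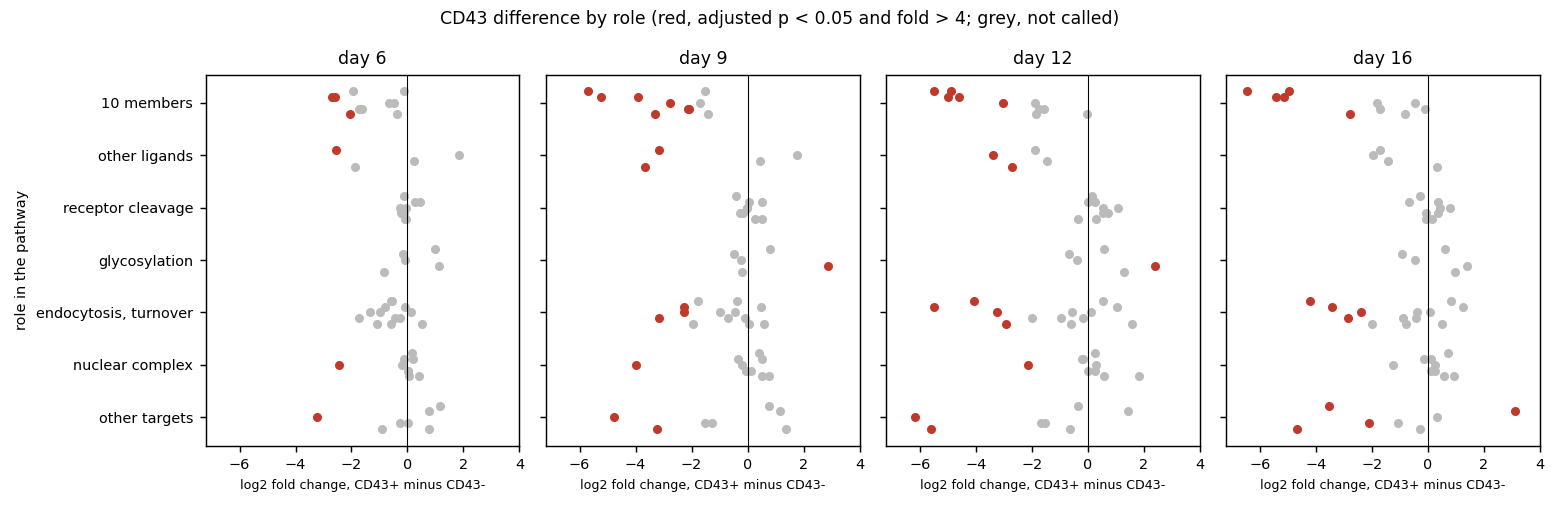
Log2 fold change of CD43+ minus CD43- cells on 4 days for the 10 Notch genes and 47 other pathway genes, 1 point a gene, by role (red, called; grey, not called). The 9 genes of receptor cleavage stay near 0 with none called, while every other group holds called genes.

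Limma called 0 of the 9 cleavage genes, which encode the ADAM proteases, the gamma-secretase subunits and furin, on any day, with 1 to 6 of them past an unadjusted p below 0.05. Their median log2 fold change lay between -0.09 and 0.31. Among the glycosyltransferases, MFNG, a Fringe enzyme that tunes which ligands a receptor answers to, was the only call in the other direction on days 9 and 12. It was at 2326, 2450 and 2733 in CD43+ and 382, 346 and 300 in CD43- cells of day 9 (2.87 ± 0.29, adjusted p = 3.04e-09) and was 5.26-fold higher on day 12 (adjusted p = 5.52e-08). On day 6 the populations were 1168, 983 and 1112 against 936, 560 and 226, without overlap.

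Of the nuclear complex, MAML2, a Mastermind co-activator, was lower in CD43+ cells. It was at 42, 60 and 41 in CD43+ and 758, 786 and 714 in CD43- cells of day 9, a log2 fold change of -3.97 ± 0.22 (adjusted p = 3.13e-14), after -2.46 on day 6. RBPJ, chosen after its values were seen, went the other way on day 12. It was at 6912, 4285 and 4285 in CD43+ and 1486, 1294 and 1512 in CD43- cells, 1.82 ± 0.15 on the log2 scale, under 4-fold. In the turnover group, NEURL1B, a Neuralized ubiquitin ligase for ligands, was 44.6-fold lower in CD43+ cells of day 12 (adjusted p = 8.02e-16). DTX3, a Deltex family gene, was 18.4-fold lower on day 16 (adjusted p = 5.51e-18), at 68, 42 and 68 against 1110, 1007 and 1142. DLL1, a Delta-like ligand, was at 12, 6 and 10 in CD43+ and 135, 105 and 142 in CD43- cells of day 9 (-3.67 ± 0.35, adjusted p = 8.26e-10). DLK2, a Delta-like protein without the receptor-activating domain, was 5.90-fold lower on day 6 (adjusted p = 6.44e-04).

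Of the further targets, HES5 and HEYL were called lower in CD43+ cells. HES5, whose promoter is shown above, was listed at 0 in all samples of days 0, 2 and 4, and at 128, 210 and 62 in CD43- cells of day 6. Its CD43+ samples were at 8, 25 and 8 on day 6, at 0, 4 and 3 on day 9 and at 0, 0 and 2 on day 12. Its CD43- samples were at 94, 44 and 97 and at 64, 90 and 184 on days 9 and 12, without overlap on any day. The log2 fold change was -3.22 ± 0.62, -4.78 and -6.16 on the 3 days (adjusted p = 9.92e-05, 1.77e-07 and 1.48e-09), and its size rests on the pseudocount where samples were at 0. HEYL was at 12, 15 and 24 in CD43+ and 825, 453 and 1534 in CD43- cells of day 12 (-5.59 ± 0.64, adjusted p = 1.39e-08) and -4.67 on day 16. HES6 was called in the other direction on day 16, at 256, 220 and 255 in CD43+ and 52, 20 and 19 in CD43- cells (3.12 ± 0.31, adjusted p = 1.21e-09). HES7 was called lower on day 16 (-3.53 ± 0.74, adjusted p = 1.37e-04), at 0, 0 and 3 against 18, 24 and 12, and fell under 4-fold with a pseudocount of 10 (-1.34).

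Several of these targets were called lower, as HES1 was, from day 12 to day 16 in CD43- cells. Of the 7 further targets, 4 were called lower and 1 higher in this step, and the median log2 fold change of the 7 was -2.07. Of all genes, 5.97% were called lower and 4.46% higher, with a median of 0.08. The 4 were chosen after their values were seen. HES5 went from 64, 90 and 184 to 1, 0 and 0, and HEYL from 825, 453 and 1534 to 75, 141 and 180 (-2.73 ± 0.64, adjusted p = 9.99e-04). HES4 went from 1158, 1293 and 1915 to 323, 335 and 353 (-2.07 ± 0.51, adjusted p = 0.00171), under 4-fold without replicate 3 of day 12 (-1.86). HES2 went from 81, 20 and 14 to 6, 2 and 8 (-2.36 ± 0.60, adjusted p = 0.00216). It fell under 4-fold without replicate 1 of day 12 (-1.63) or replicate 2 of day 16 (-1.90), and had an adjusted p of 0.0689 where limma was fitted on these populations only. HES7 was the gene called higher, and fell under 4-fold with a pseudocount of 10 (1.33). HEY1, at 2578, 1090 and 2706 and then at 1209, 1086 and 1142, and HEY2 were not called.

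**Figure D5:**
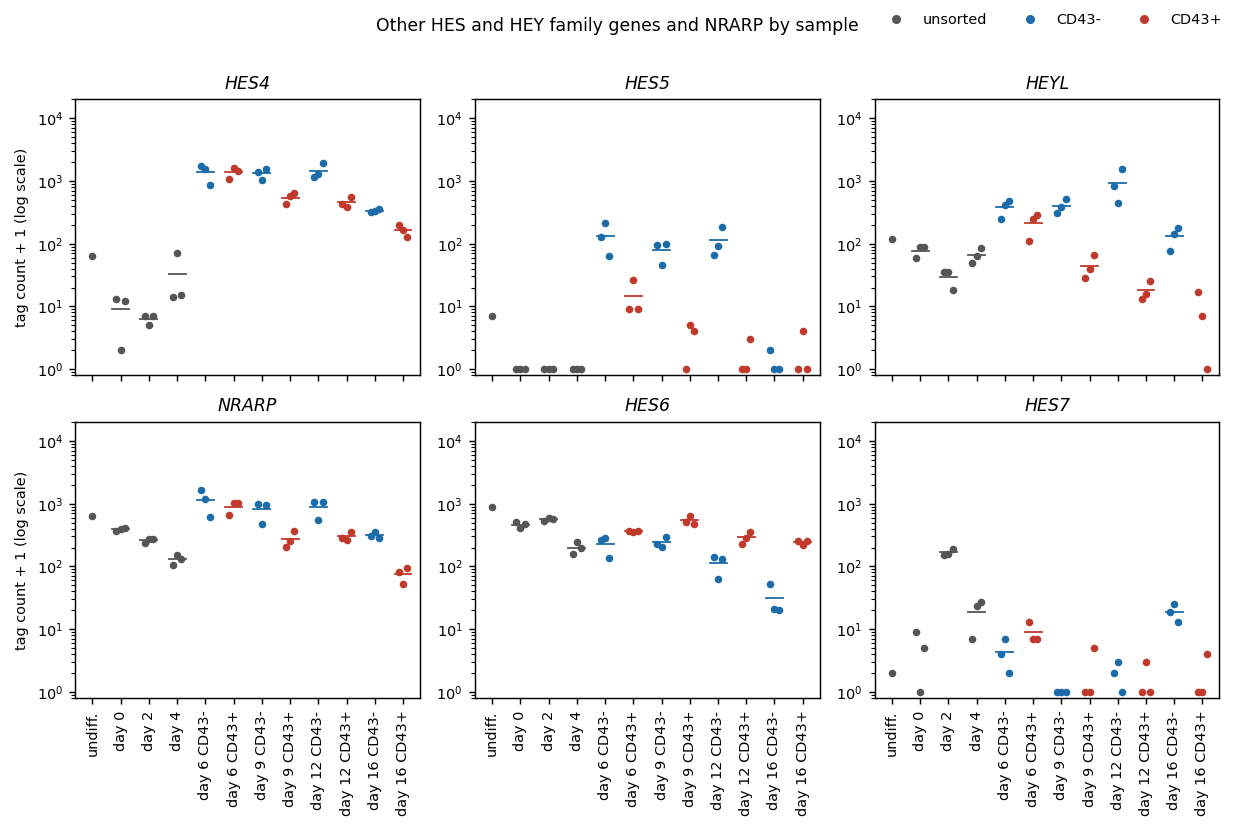
Tag counts plus 1 on a log axis for 6 further target genes in 12 populations, with points for samples and bars for means where no sample of the group was at 0. In CD43- cells HES5 was at 44 to 210 on days 6, 9 and 12 and at 0 or 1 on day 16, and HES4 and HEYL were also lower on day 16 than on day 12.

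The genes most like each member over the population means were found by the Pearson correlation of the mean log2(value + 1), across 12 points that share libraries and normalization, as a description. For NOTCH4 these were ESM1 (0.994), CLEC14A (0.983) and ADGRF5 (0.982), and for DLL4 PTPRB (0.980), CLEC14A (0.975) and ADGRF5 (0.974). NOTCH4 and DLL4 thus had a pair of genes in common among their nearest. For NOTCH3 they were S1PR5 (0.990), EFNA2 (0.985) and SUSD4 (0.983). HEY1 was nearest to PIK3C2B (0.981), TANC2 (0.972) and EFNA1 (0.970), and HEY2 to CDC42BPB (0.986), BICD1 (0.983) and PLCG1 (0.970). JAG1 was nearest to TLL1 (0.941), JAG2 to a locus named RP11-384F7.2 (0.958) and HES1 to LIMS3 (0.950). NOTCH2 (PLXNB2, 0.931) and NOTCH1 (PEAK1, 0.884) had the least close matches.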

How the data were processed

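RNA-seq of 34 H1 samples was used. According to the paper's methods, the authors mapped the reads by bowtie2 and quantified them by RSEM on Ensembl transcripts of hg38, and the submitters' processing notes also name STAR 2.7. What the authors deposited are tag counts normalized for GC content with EDASeq, within and between samples, as whole numbers, and this deposited unit was handled as a normalized score and not as raw counts or CPM. The deposited table also lists a GC percent for each gene, which was not used in a test. Depth and counting precision are unknown. Strand use is not given in the sources used here, so genes that overlap others are uncertain.

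A single limma model (limma 3.58.1, R 4.3.3, trended eBayes) was fitted to log2(value + 1) of 33 samples in 11 populations. It covered 19788 genes that reached 10 in 3 or more samples, which left 467 untested. A call required a Benjamini-Hochberg adjusted p under 0.05 over all tested genes together with a change of more than 4-fold, in each of 17 comparisons. The undifferentiated sample has no replicate and was not tested. The procedure was tested on simulated data. The members, the lists and the rule for naming genes were chosen with earlier results of these data known. By that rule, all 10 members, up to 3 called pathway genes a direction in each CD43 comparison and the most correlated genes were named. RGS5, a symbol shared by a pair of Ensembl genes, was left out of the mural list. Coordinates are those of the deposited table (GRCh38), and the 10 members matched GENCODE release 29. Promoter sequences were taken from RefSeq.

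Alternatives were no filter or a minimum of 100, pseudocounts of 0.1 and 10, quantile normalization, median-of-ratios scaling, replicate blocks over all samples or within days, only the populations compared, robust variances, a fold above 2 and leaving out each replicate. The CD43+ and CD43- samples of one number deviated from their population means with a correlation of 0.109 to 0.199 on day 6. These deviations correlated at 0.017 to 0.078 on day 9, at 0.039 to 0.108 on day 12 and at -0.015 to 0.042 on day 16. Correlations between samples of unlike numbers were not computed, so whether the numbers pair samples was not tested.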

Additional observations from a re-analysis of the deposited data

Results flagged for a closer look

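A change of the CD43 difference between days was called for 4 of the genes, by the test of the difference of differences in limma. From day 6 to day 9 the log2 change of the difference was -3.74 for DLL4, -2.67 for HEY1 and -2.12 for NOTCH3. From day 9 to day 12 it was -3.35 for HEY2. In each of these 4 cases the CD43+ cells moved further below the CD43- cells. The day 9 CD43+ samples of DLL4 (36, 67 and 182) lay wholly below those of day 6. The day 12 CD43+ samples of HEY2 (10, 12 and 12) lay wholly below those of day 9. At the adjusted p alone, the difference widened for 7 of the 10 from day 6 to day 9. From day 9 to day 12 it narrowed for 2 and widened for 1. From day 12 to day 16 it narrowed for 3 and widened for 1.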

How the results depend on the processing

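With a fold change above 2 in place of 4, the members called were 6 on day 6, 9 on day 12, 2 from day 2 to day 4, 6 from day 4 to day 6 CD43+, and in CD43+ cells 7, 3 and 4 over the steps from day 6 to 9, 9 to 12 and 12 to 16. They were 1 from day 9 to 12 in CD43- cells and 7, 3 and 3 for the changes of the CD43 difference. All 10 members were called on day 9, and the counts of day 16 and of day 6 CD43- cells against day 4 also rose. The other pathway genes called were then 9, 16, 21 and 14 on days 6, 9, 12 and 16. With a pseudocount of 10, 0 members were called from day 0 to day 2. Leaving out each replicate gave 2 to 5 members on day 6 (5 without replicate 3 of the CD43- cells), 0 to 1 from day 0 to day 2, 0 to 1 from day 12 to 16 in CD43+ cells and 0 to 1 from day 9 to 12 in CD43- cells. It also turned the sign of 3 uncalled differences, HEY2 on day 6 (-0.61 to 0.21), NOTCH1 on day 12 (-0.17 to 0.10) and NOTCH2 on day 16 (-0.24 to 0.10). Median-of-ratios scaling shifted the median of all genes by up to 0.21 on the log2 scale and took DLL4 on day 6 to -2.13, past the threshold. Quantile normalization shifted that median by at most 0.0011, since every sample already held one set of values before the filter. With the replicate block, 3, 7, 5 and 5 members were called on days 6, 9, 12 and 16, as without it, and it changed no other call on the members.

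The table holds no depth, and no counting precision was computed. Each tested population had 3 replicates, and genes with samples at or near 0, such as HES5, had fold changes that moved with the pseudocount.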

Other observations

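On day 2 a different set of pathway genes was high, all chosen after their values were seen. DLL1 was at 40, 22 and 26 on day 0, at 856, 917 and 926 on day 2 and at 99, 88 and 94 on day 4, a rise of 4.94 ± 0.35 and then a log2 fold change of -3.25 ± 0.35 (limma, adjusted p = 1.30e-11 and 3.08e-08). HES7, an oscillating repressor of somite formation, was at 152, 158 and 188 on day 2 and at 6, 22 and 26 on day 4. HEY1, the member called higher on day 2, was still at 245, 258 and 193 on day 4.

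DLK1, a Delta-like protein that does not activate receptors in the usual way, changed its order between the sorted populations. It was at 222, 270 and 289 in CD43- and 1314, 684 and 894 in CD43+ cells of day 6. By day 12 it was at 18763, 18763 and 37178 in CD43- and 1300, 3062 and 2865 in CD43+ cells, so the order of the populations was the opposite of that on day 6 (-3.39 ± 0.49 on day 12, adjusted p = 8.45e-07).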
